A study of Bos taurus with 14 samples.

Results

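ADA (adenosine deaminase, ENSBTAG00000005280) and AOX1 (aldehyde oxidase 1, ENSBTAG00000009725) are 2 of the 24616 genes counted in endometrial explants of cows cultured with or without the peptide sPIF. Both were chosen by the measured sPIF minus Control difference in these same libraries, because both stand in the study's list of genes changed by sPIF, which also supplied their symbols. The AOX1 identifier carries 1 extra 0 in that list, which was removed to find its row. Both genes were among the 13233 with at least 10 counts in every library, which were the genes tested. The sPIF contrast is therefore described for these genes and not tested, while sequencing lane and progesterone group were not used to choose them.

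Uteri came from 7 heifers at slaughter, with ovaries in stage IV, told by a regressing corpus luteum and labelled as follicular, although the serum progesterone of some animals was high for that stage. Intercaruncular endometrium of each animal, cut free of the myometrium, gave 1 Control and 1 sPIF explant, so that every comparison of treatments was made within a cow. The sPIF explants received 100 nM of sPIF, a synthetic copy of preimplantation factor, for 30 h, with fresh medium and peptide after the first 24 h and for the last 6 h. The Control explants had the same medium, the same change of medium and the same amount of DMSO, the solvent of the peptide. Lane 1 of the sequencer held cows 1 to 4 and lane 2 held cows 5 to 7, whose libraries were sequenced again and the counts added. The high progesterone group, by serum concentration, was cows 2 to 5 and the low group was cows 1, 6 and 7. The libraries held 15885642 to 28625724 counts in total, and the median library held 18886976. An explant is a piece of whole tissue, so fewer cells of a type and less RNA per cell cannot be told apart in any value below. Of 39 markers of epithelium, stroma, endothelium, smooth muscle, leukocytes and endometrium, 1 could be matched to an identifier, so the labelled tissue was not checked against its markers.

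Adenosine deaminase removes an amino group from adenosine and deoxyadenosine, giving inosine and deoxyinosine, which enter purine salvage or are degraded towards urate. It keeps adenosine, a signal that dampens many immune cells, at a low concentration, and its loss impairs lymphocytes. Aldehyde oxidase is a cytosolic enzyme that needs a molybdenum cofactor, FAD and iron-sulphur clusters, and is a close relative of xanthine dehydrogenase, which acts late in purine breakdown. It oxidises aldehydes, including retinaldehyde to retinoic acid, and many nitrogen-containing rings, and releases hydrogen peroxide and superoxide.

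ADA was lower in the sPIF explant than in the Control explant of 7 of 7 cows. In the Control explants its level, in CPM (counts divided by the TMM-adjusted library size, so that libraries of unequal depth compare), was 22.0 in cow 1, 34.3 in cow 2, 31.3 in cow 3, 43.1 in cow 4, 50.0 in cow 5, 37.6 in cow 6 and 75.1 in cow 7. In the sPIF explants its CPM was 20.7 in cow 1, 21.0 in cow 2, 15.4 in cow 3, 32.9 in cow 4, 20.4 in cow 5, 21.4 in cow 6 and 56.5 in cow 7. Cow 7 had the highest level under both treatments, and the sPIF explants of cows 1, 2, 5 and 6 lay close together although their Control explants did not. The groups overlapped. Control explants had a mean CPM of 41.9 ± 17.1 (SD, n = 7) and sPIF explants one of 26.9 ± 14.1 (SD, n = 7).

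The within-cow difference of ADA, sPIF minus Control in log2 CPM, was -0.09 in cow 1, -0.71 in cow 2, -1.02 in cow 3, -0.39 in cow 4, -1.29 in cow 5, -0.81 in cow 6 and -0.41 in cow 7. As a ratio of CPM, sPIF to Control, this ran from 0.408 in cow 5 to 0.941 in cow 1. The difference in cow 1 was smaller than its counting error of 0.10 on the log2 scale, and those of the other 6 cows were larger than theirs. The paired fit gave ADA a log2 fold change of -0.68 (SE 0.14).

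AOX1 moved the other way and was higher in the sPIF explant of 7 of 7 cows. Its Control CPM was 402 in cow 1, 871 in cow 2, 405 in cow 3, 503 in cow 4, 143 in cow 5, 235 in cow 6 and 592 in cow 7. Its sPIF CPM was 734 in cow 1, 1181 in cow 2, 437 in cow 3, 718 in cow 4, 247 in cow 5, 343 in cow 6 and 731 in cow 7. Cow 2 was highest and cow 5 lowest under both treatments, and the sPIF explants of cows 1, 4 and 7 were nearly level. The groups overlapped here too, Control explants having a mean CPM of 450 ± 240 (SD, n = 7) and sPIF explants one of 627 ± 316 (SD, n = 7).

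The within-cow difference of AOX1 in log2 CPM was 0.87 in cow 1, 0.44 in cow 2, 0.11 in cow 3, 0.51 in cow 4, 0.78 in cow 5, 0.55 in cow 6 and 0.30 in cow 7. The ratio of CPM, sPIF to Control, lay between 1.08 in cow 3 and 1.82 in cow 1. AOX1 had many counts, from 2590 to 19790 per library, and even the difference of cow 3 was larger than its counting error of 0.02 on the log2 scale. ADA had 295 to 1298 counts per library. The paired fit gave AOX1 a log2 fold change of 0.51 (SE 0.10).

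**Figure D1:**
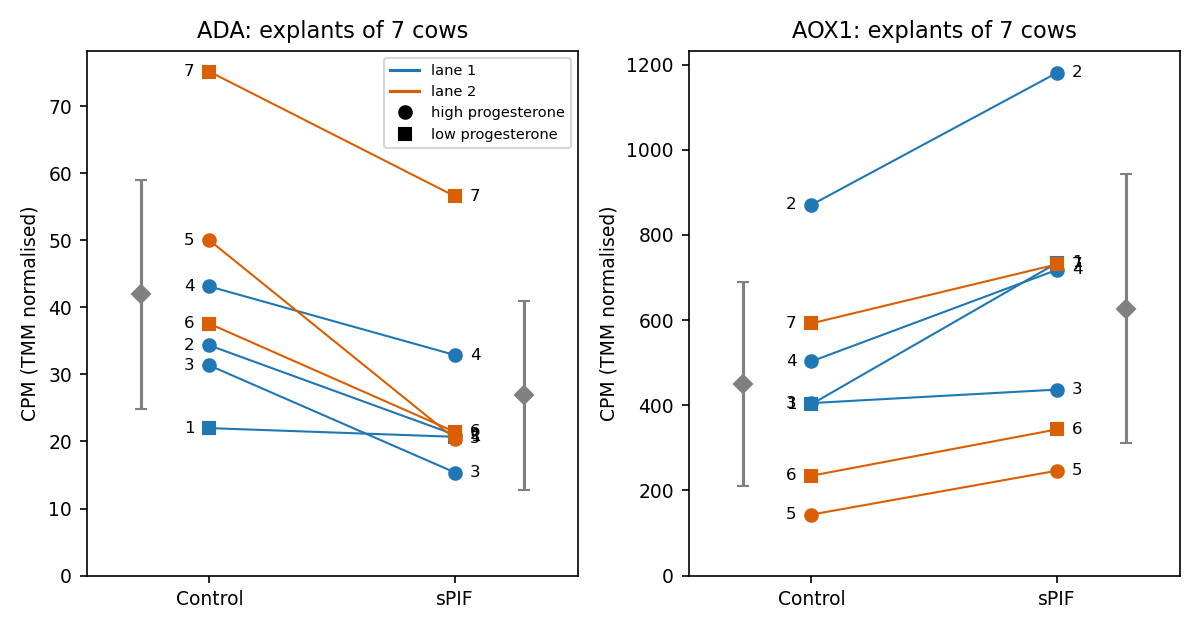
Level of ADA (left) and AOX1 (right) in CPM in the Control and sPIF explants of 7 cows, with a line joining the explants of a cow, the cow's number beside each point, and the mean with its SD in grey. All 7 lines descend for ADA and all 7 ascend for AOX1, while the cows differ widely in level, and colour marks the lane and shape the progesterone group.

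The contrast behind the study's choice was fitted again on the deposited counts, so the values here are those of the refit and not the ones the study used. DESeq2, with cow as a block, called 2 of these 2 genes at an adjusted p under 0.1, against 0.756% of the genes tested, and nothing is read from this since the rule used the contrast. The adjusted p by DESeq2 was 0.00863 for ADA and 0.00670 for AOX1. Nearest to the threshold, the gene just inside had a log2 fold change of -0.50 and a DESeq2 adjusted p of 0.0998, and the gene just outside one of -0.86 and 0.101. The quasi-likelihood test of edgeR called 0 of the 2 genes and 0% of those tested, with an adjusted p of 0.525 for each. By the same edgeR test 1061 genes had an unadjusted p under 0.05, and DESeq2 called 100 genes. The median log2 difference of all genes tested was 0.0013, and the median of its absolute size was 0.11.

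Most of the variation of both genes lay between animals. Of the sum of squares of ADA in log2 CPM over the 14 libraries, 63.5% lay between cows, 27.7% between treatments and 8.85% in the rest. For AOX1 these shares were 87.6%, 10.1% and 2.29%. Over the genes tested the median share between cows was 75.6%, that between treatments 2.32% and the rest 19.4%. The paired contrast that chose the genes weighs the treatment difference against the rest, so both of these shares belong to the choice. The share between cows is what they leave, so it is not free of the choice either. The shares are thus a description only.

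The cows formed a different order for each gene. By the mean log2 CPM of its explants, ADA ran from 6.03 in cow 7 through 5.24 in cow 4, 5.00 in cow 5, 4.83 in cow 6, 4.75 in cow 2 and 4.46 in cow 3 to 4.42 in cow 1. AOX1 on the same scale ran from 9.99 in cow 2 through 9.36 in cow 7, 9.23 in cow 4, 9.09 in cow 1, 8.72 in cow 3 and 8.15 in cow 6 to 7.56 in cow 5. Cow 7 was first for ADA and next to first for AOX1, and cows 5 and 6, in the middle for ADA, had the lowest AOX1. Over the 7 cows the levels of the 2 genes gave a Pearson's r of 0.147 (exact two-sided permutation p = 0.757) and a Spearman's rho of 0.143 (exact permutation p = 0.783). Adjusted over the relations of levels and of within-cow differences, these permutation p-values stayed at 0.757 and 0.783. Levels gave the 1 relation whose p is reported. Without cows 7 and 1, the farthest from the median of ADA, r was -0.0831. Within lane 1 it was 0.332 over 4 cows and within lane 2 it was 0.896 over 3, numbers too small to read a relation from.

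The cow with the larger difference in ADA was not regularly the one with the larger difference in AOX1. Cow 5 was far from 0 for both genes, cow 1 had the smallest difference in ADA and the largest in AOX1, and cow 3 had the second largest in ADA and the smallest in AOX1. Pearson's r between the within-cow differences was 0.195 and Spearman's rho 0.214 over 7 cows, given as a description because these differences chose both genes. A permutation test of it was computed, and for the same reason its p is not reported. That p entered only the adjustment given for the levels. The value rested on single animals, since r was -0.297 without cow 1, -0.0846 without cow 3 and 0.747 without cow 5. Without both cows 1 and 5 it was 0.451. The lanes had opposite signs, 0.973 over the 4 cows of lane 1 and -0.997 over the 3 cows of lane 2, too few cows to read a relation from.

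**Figure D2:**
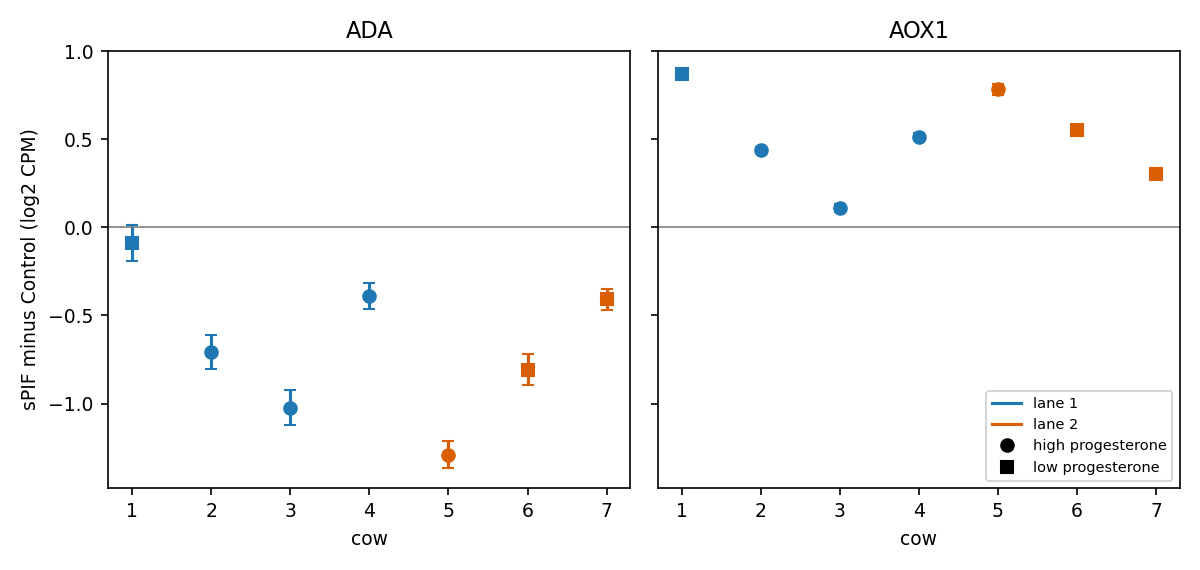
Difference between the sPIF and the Control explant of each of 7 cows in log2 CPM for ADA (left) and AOX1 (right), with bars for the counting error (1 SE) of the counts. All 7 differences lie below 0 for ADA, from -1.29 to -0.09, and above 0 for AOX1, from 0.11 to 0.87, and cows of both lanes (colours) and both progesterone groups (shapes) are mixed.

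Lane separates the cows but not the explants of a cow, so it was tested on counts summed over both explants of each animal. The mean log2 CPM of ADA was 5.29 ± 0.65 (SD, n = 3) in lane 2 and 4.72 ± 0.38 (SD, n = 4) in lane 1. That of AOX1 was 8.36 ± 0.92 (SD, n = 3) in lane 2 and 9.26 ± 0.53 (SD, n = 4) in lane 1. ADA was thus higher and AOX1 lower on average in lane 2, but the cows of the lanes overlapped for both genes. The Control explants alone had a mean ADA CPM of 54.2 ± 19.1 (SD, n = 3) in lane 2 and 32.7 ± 8.71 (SD, n = 4) in lane 1, and an AOX1 CPM of 323 ± 237 (SD, n = 3) and 545 ± 222 (SD, n = 4).

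By edgeR on the summed counts the lane 2 minus lane 1 difference in log2 was 0.57 (SE 0.30, adjusted p = 0.191) for ADA and -0.77 (SE 0.43, adjusted p = 0.211) for AOX1. Permuting the cows between lanes in all 35 ways, an exact test that is two-sided and cannot go below 0.0286, gave p = 0.2 for each gene. Neither passed the threshold of 0.1, so edgeR called 0 of 2 genes between lanes, against 39.6% of the genes tested, 19.6% as higher and 20% as lower in lane 2. Over all genes 5573 had an unadjusted edgeR p under 0.05, and DESeq2 called 5637 genes but neither ADA nor AOX1. Among the lane 2 animals cow 7 had the highest level of both genes. Without it the lane difference was 0.13 for ADA and -1.41 for AOX1, the latter at an edgeR adjusted p of 0.0321, where the 12 alternatives for AOX1 ranged from 0.0321 to 0.462. Lane cannot be told apart from the animals it held.

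The progesterone groups overlapped for both genes. Mean log2 CPM of ADA was 4.86 ± 0.33 (SD, n = 4) in the high and 5.09 ± 0.83 (SD, n = 3) in the low progesterone group, and that of AOX1 was 8.87 ± 1.02 (SD, n = 4) and 8.87 ± 0.64 (SD, n = 3). On the summed counts edgeR gave a high minus low difference in log2 of -0.31 (SE 0.35, adjusted p = 0.855) for ADA and 0.15 (SE 0.50, adjusted p = 0.942) for AOX1. The exact permutation test gave p = 0.714 for ADA and p = 1 for AOX1. By edgeR 0 of 2 genes were called, as were 0% of the genes tested, while 458 genes had an unadjusted p under 0.05 and DESeq2 called 24 genes, neither of these among them. The direction did not hold with lane in the fit, where the difference was 0.0073 for ADA and -0.45 for AOX1, and for ADA it was 0.27 without cow 7. For AOX1 it was -0.28 without cow 2 and -0.14 without cow 6. Within lane 1 the 3 high animals exceeded the 1 low animal by 0.40 for ADA and 0.22 for AOX1 in log2 CPM, and within lane 2 the 1 high animal differed from the mean of the 2 low ones by -0.43 and -1.20.

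The within-cow sPIF differences were also set beside lane and progesterone group, as a description, since a choice by these differences favours genes whose cows moved alike. The mean difference of ADA in log2 CPM was -0.55 ± 0.40 (SD, n = 4) in lane 1 and -0.84 ± 0.44 (SD, n = 3) in lane 2. That of AOX1 was 0.48 ± 0.31 (SD, n = 4) in lane 1 and 0.55 ± 0.24 (SD, n = 3) in lane 2, so both lanes held the same direction for each gene. By progesterone group the ADA difference was -0.85 ± 0.39 (SD, n = 4) in the high and -0.43 ± 0.36 (SD, n = 3) in the low animals. The AOX1 difference was 0.46 ± 0.28 (SD, n = 4) in the high and 0.57 ± 0.28 (SD, n = 3) in the low animals. In each of these splits the animals of the groups overlapped, and whether the differences depend on lane or progesterone was not tested here. The study tested both interactions with DESeq2 and reported none at an adjusted p under 0.1. It also reported no effect of lane or progesterone on the data set as a whole, although its samples separated by lane in the PCA. Here edgeR, in a fit on counts summed per cow, called 39.6% of the genes tested between lanes and 0% between progesterone groups.

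The genes most like ADA and AOX1 were sought among the 85 other tested genes with a symbol, all of which come from the study's list of genes changed by sPIF. For the level of ADA in log2 CPM over the 14 libraries they were NFKBIE, an inhibitor that holds NF-kappa-B in the cytoplasm, with r = 0.924, CYP26B1, which hydroxylates retinoic acid, with r = 0.902, and TNFAIP3, a ubiquitin-editing enzyme that restrains NF-kappa-B signalling, with r = 0.901. Of all 13232 other genes tested, with or without a symbol, 0 had a higher r with ADA than NFKBIE, 1 than CYP26B1 and 2 than TNFAIP3, and the median r of all was -0.0060. The libraries share cows and lanes, and the treatment that chose these genes runs through them, so r is also given in parts. Between ADA and NFKBIE it was 0.937 over the 7 Control explants and 0.880 over the 7 sPIF explants, 0.836 in lane 1 and 0.975 in lane 2, and 0.863 without cow 7. In lane 1 r with ADA was 0.758 for CYP26B1 and 0.714 for TNFAIP3, and in lane 2 it was 0.944 and 0.980. Over the Control explants it was 0.782 for CYP26B1 and 0.853 for TNFAIP3, and without cow 7 it was 0.865 and 0.806.

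NFKBIE averaged 103 ± 48.6 CPM (SD, n = 7) over Control and 64.4 ± 26.5 CPM (SD, n = 7) over sPIF explants and was lower in 7 of 7 sPIF explants, with its highest value in cow 7 as for ADA. Its Control CPM was 53.5, 58.6 and 79.4 in cows 1, 2 and 3, 102 in cow 4, 124 and 106 in cows 5 and 6, and 196 in cow 7. Its sPIF CPM was 47.1, 40.7 and 49.6 in cows 1, 2 and 3, 70.6 in cow 4, 64.8 and 58.3 in cows 5 and 6, and 120 in cow 7. Cows 4 and 7 were thus the highest among the sPIF explants for NFKBIE and for ADA.

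For the within-cow difference over the 7 cows, CYP26B1 was most like ADA with r = 0.985, followed by TNFAIP3 with r = 0.967 and CD83, a surface protein of mature dendritic cells and activated lymphocytes, with r = 0.926. Of all 13232 other genes 0 had a higher r than CYP26B1, 4 than TNFAIP3 and 17 than CD83. The sPIF differences chose ADA and the genes with a symbol, so these values of r and ranks are a description only. With each cow left out in turn the r of CYP26B1 lay between 0.978 and 0.994. The CYP26B1 difference in log2 CPM was 0.33 in cow 1, -1.16 in cow 2, -2.03 in cow 3, -0.46 in cow 4, -2.62 in cow 5, -1.74 in cow 6 and -0.10 in cow 7. The order of the cows was nearly that of ADA, with cow 5 lowest, then cows 3, 6 and 2, and cow 1 highest, but CYP26B1 was lower in only 6 of 7 sPIF explants. CD83 likewise was lower in 6 of 7, from -2.21 in cow 5 to 0.31 in cow 1, and TNFAIP3 was lower in 7 of 7, from -0.87 in cow 5 to -0.06 in cow 1, the last within its counting error of 0.06.

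For the level of AOX1 over the 14 libraries the most alike were SQLE, the squalene epoxidase of cholesterol synthesis, with r = 0.845, CYP24A1, which inactivates vitamin D, with r = 0.781, and SERPINA1, the protease inhibitor alpha-1 antitrypsin, with r = 0.741. Of all 13232 other genes 11 had a higher r with AOX1 than SQLE, 53 than CYP24A1 and 120 than SERPINA1. Between AOX1 and SQLE r was 0.789 over the 7 Control and 0.879 over the 7 sPIF explants, 0.729 in lane 1 and 0.822 in lane 2, and between 0.814 and 0.873 with each cow left out in turn. In lane 1 r with AOX1 was 0.630 for CYP24A1 and 0.789 for SERPINA1, and without cow 2 it was 0.741 and 0.632. SQLE, CYP24A1 and SERPINA1 were each higher in 7 of 7 sPIF explants, as AOX1 was, with log2 fold changes of 0.31 (SE 0.07), 0.73 (SE 0.17) and 1.18 (SE 0.25) in the paired fit. In cow 4 the difference of SQLE, 0.01 in log2 CPM, was within its counting error of 0.04.

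The within-cow difference of AOX1 was most like those of IFNAR2, a subunit of the type I interferon receptor, with r = 0.877, RPRM, a p53 target that halts the cell cycle, with r = 0.780, and RHOF, a small GTPase, with r = 0.771 over 7 cows. Here 58, 287 and 316 of the 13232 other genes had a higher r. These too are a description only, since the sPIF differences chose AOX1 and the genes with a symbol. Without cow 3 the r of RPRM was 0.530 and that of RHOF 0.624, and without cow 1 that of IFNAR2 was 0.800, the lowest values with a cow left out. In lane 1 r was 0.978 for IFNAR2, 0.931 for RPRM and 0.984 for RHOF over 4 cows, and in lane 2 it was 0.754, -0.0739 and 0.420 over 3, again too few cows to read a relation from. RPRM had only 16 to 28 counts per library in cows 1 and 2, where the counting errors of its differences were 0.40 and 0.45 on the log2 scale. On average these 3 genes were lower in sPIF explants, by log2 fold changes of -0.40, -0.79 and -0.41, so the likeness lies in the order of the cows and not in the direction. Over the 14 libraries the level of RPRM gave r = -0.830 with that of AOX1, the lowest of the 85 genes. ADA and AOX1 themselves gave r = -0.0491 over the 14 libraries.

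**Figure D3:**
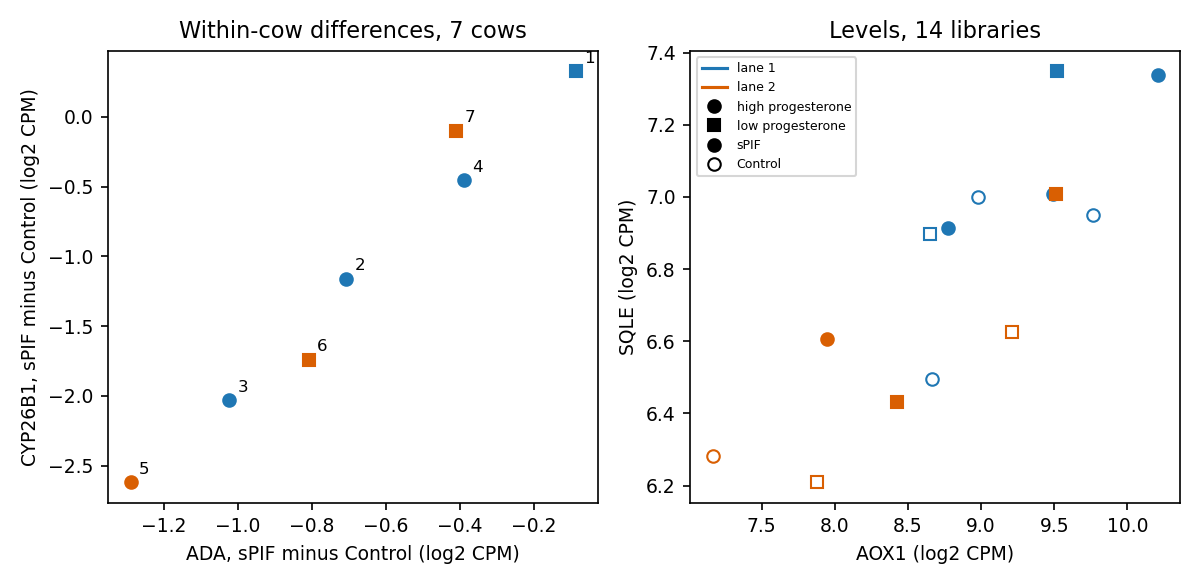
Left, the sPIF minus Control difference of CYP26B1 against that of ADA in log2 CPM, 1 point for each of 7 cows with its number, where the cows lie along a line (r = 0.985). Right, the level of SQLE against that of AOX1 in log2 CPM in 14 libraries (r = 0.845), with filled points for sPIF, open points for Control, colour for lane and shape for progesterone group.

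Other genes of the pathways could be followed only where an identifier was paired with a symbol. Of 32 genes of adenosine and purine metabolism this was ADA alone, of 12 molybdenum enzymes and cofactor genes AOX1 alone, and of 25 aldehyde and retinoid genes AOX1 and CYP26B1. A set of 12 enzymes from the study's list was therefore used. It does not hold every enzyme there (TNFAIP3 and the kinase MAPK11 are outside it), and the study chose its list on these samples, so the sPIF directions are no independent evidence. Of the 10 enzymes besides ADA and AOX1, 4 were higher and 6 lower with sPIF by the paired fit, with a median log2 difference of -0.43 beside 0.0013 over all genes tested. Between lanes edgeR called 3 of the 10 as higher and 2 as lower in lane 2, beside 19.6% and 20% of the genes tested, shares near that background, with a median of -0.22 beside -0.0001 over all genes, and between progesterone groups 0 of the 10, with a median of 0.03 beside 0.0074.

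The enzymes called between lanes by edgeR at an adjusted p under 0.1 were CYP26B1, with a lane 2 minus lane 1 difference in log2 of 1.01 (adjusted p = 0.0620), KDM6B, a histone H3 lysine demethylase, with 0.89 (adjusted p = 0.0082), and DHCR7, of the last step of cholesterol synthesis, with 0.72 (adjusted p = 0.0848). CYP24A1 was lower in lane 2 by edgeR, with -1.19 (adjusted p = 0.0162), and so was SQLE, with -0.45 (adjusted p = 0.0738). With progesterone in the same fit the adjusted p of DHCR7 was 0.267 and that of the other 4 stayed under 0.1, while NT5DC1, a relative of the 5'-nucleotidases, came to 0.0563 from 0.349 and would count as a further enzyme lower in lane 2.

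CNN1, calponin of smooth muscle, was the 1 marker of 39 with an identifier, and it too comes from the study's list. It averaged 78.1 ± 46.8 CPM (SD, n = 7) over Control and 49.4 ± 34.2 CPM (SD, n = 7) over sPIF explants and was lower in 7 of 7 sPIF explants, with a log2 fold change of -0.69 (SE 0.14), as ADA was. It was higher in lane 2 by 1.28 in log2 (edgeR adjusted p = 0.0298), and its highest level, 159 CPM, was in the Control explant of cow 7. SMTN (smoothelin) and TPM2 (a tropomyosin), muscle genes outside the marker list and named after their values were seen, also stand in the study's list. Their log2 fold changes with sPIF were -0.44 for SMTN and -0.43 for TPM2. Between lanes they differed in sign, SMTN by 0.91 (edgeR adjusted p = 0.00397) and TPM2 by -0.67 (edgeR adjusted p = 0.220) in log2, lane 2 minus lane 1. The part of muscle in the values of ADA and AOX1 was not tested.

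AOX1 belongs to a family of near relatives. In the ARS-UCD2.0 assembly it is followed by AOX4, an uncharacterised gene and AOX2, whereas ADA lies between PKIG and CCN5. Reads shared among the AOX genes could have been counted for any of them or for none, and how such reads were treated is not given in the sources used here, so the AOX1 counts are uncertain to that extent. Counts of AOX2 and AOX4 were not analysed here.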

How the data were processed

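RNA of 14 explants was sequenced as paired ends after preparation with the TruSeq v2 kit. The authors trimmed the reads (Trimmomatic 0.36.0), mapped them to the UMD3.1 assembly (Bowtie2 2.2.6, Ensembl annotation) and counted them per gene (featureCounts 1.4.6), per the labels and the study's methods. The deposited values are these raw counts, without normalisation, with both runs added for cows 5 to 7. The row of column totals was left out, and 0 columns could not be assigned to a library. Lane and progesterone group of each cow came from the study's methods and results.

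The filter kept genes reaching 10 counts in all libraries, and these were tested in R 4.3.3 with edgeR 4.0.16 (TMM, quasi-likelihood test, Benjamini-Hochberg adjustment over all genes tested, threshold 0.1), with cow as a block for sPIF and on counts summed per cow for lane and progesterone. Log2 CPM used a prior count of 2. Counting errors are Poisson errors of both counts and cover counting only. The edgeR steps were run on simulated data, and the share of changes recovered is not reported here. Samples are paired because both explants came from 1 animal, per the labels and the study's methods. The deviations of both explants from their group means correlated across genes at 0.412 to 0.764 for the 7 cows, with a median of 0.667.

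The members and lists were chosen with earlier results of these data known. The genes named are ADA, AOX1, the genes of the lists (12 enzymes from the study's list where no identifier was paired) at an adjusted p under 0.1 between lanes or progesterone groups, and for each member the 3 genes with the highest Pearson's r of level over 14 libraries and of difference over 7 cows, among those with a symbol. In addition CNN1 is named as the matched marker, and SMTN, TPM2 and MAPK11 were named after their values were seen. Symbols came from the study's list of 102 identifiers, 27 of them with an extra 0, of which 97 were tested and 86 of these had a symbol. No identifier of the deposited table was found in the RefSeq table (ARS-UCD2.0), which served only for the order of neighbouring genes, so the marker lists gave 0 matches other than CNN1.

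The alternatives were DESeq2 1.42.0, its median-of-ratios size factors, no filter on low counts, each lane alone, a fit without the block, Control explants alone, lane and progesterone in 1 fit, a prior count of 0.5 and each cow left out in turn.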

Additional observations from a re-analysis of the deposited data

How the results depend on the processing

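Without cow as a replicate block (not paired), the sPIF difference in log2 was -0.64 for ADA and 0.48 for AOX1. The edgeR test called 0 genes with the block and 0 without it, so the calls could not fall. Its adjusted p for each of ADA and AOX1 was 0.525 with the block and 0.99996 without it. Over 13 alternatives the sPIF difference stayed between -0.83 and -0.55 for ADA and between 0.44 and 0.58 for AOX1. Genes called between sPIF and Control numbered 100 by DESeq2, and those between progesterone groups 24, against 0 for each by edgeR in the other alternatives. Genes called between lanes numbered 3546 to 5637 over 12 alternatives. With each cow left out in turn, the lane difference of AOX1 ran from -1.41 to -0.47, the progesterone difference from -0.60 to 0.27 for ADA and from -0.28 to 0.43 for AOX1, and the correlation of ADA with AOX1 from -0.165 to 0.318 for levels and from -0.297 to 0.747 for differences. With lane and progesterone in 1 fit the progesterone difference was 0.0073 for ADA and -0.45 for AOX1. The cause of these changes was not tested, and the fits that leave a cow out also hold fewer animals. The lane difference of ADA kept its direction under 12 of 12 alternatives. Its size ran from 0.13 without cow 7 to 0.77 without cow 6. The difference of ADA in cow 1, the smallest of the 7 cows, was within counting error.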
